A study of Mus musculus with 4 samples.

Results

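The posterior Hoxa cluster and its flanks on mouse chromosome 6 were examined for Isl1 binding in the embryonic genital tubercle. The genes were 5 named members out of 21887 protein-coding genes: Evx1, Hoxa13, Hoxa11, Hoxa10 and Hoxa9. Around them, every peak was taken whose midpoint lay in the cluster or within 1 Mb of Hoxa13 on either side (mm10 coordinates). That gave 18 of 8860 peaks in replicate 1 and 23 of 10162 peaks in replicate 2. Peaks of the replicates that overlapped by at least 1 bp were joined into 13 shared regions, of 6834 in the series.

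The embryos were CD1 mice of wild-type genotype at E14.5 (embryonic day), and chromatin was taken from their genital tubercles. The 2 Isl1 ChIP samples were precipitated with a rabbit monoclonal antibody against ISL1, and the 2 input DNA samples, from the same tissue, strain and stage, had no antibody. The labels give no treatment, and they do not say whether tubercles were pooled or whether the replicates came from separate dissections. Each ChIP sample had 1 list of peaks with a whole-number score given by the authors, while the input samples had no list and were not analysed here. A peak list carries no expression values, so the tissue label could not be checked against marker genes. Read depth is unknown, and a site below the authors' threshold does not appear in a list.

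Isl1 is a LIM-homeodomain transcription factor of the tubercle mesenchyme. The Hoxa genes encode homeodomain transcription factors that lie in a row on the chromosome in the order of their use along the body axis, with Hoxa13 last. Hoxa13 is required in the mouse for normal outgrowth of the digits and the genital tubercle. In limb buds and tubercles its transcription is known to depend on remote enhancers spread over the flank beyond Evx1, a stretch shared with the neighbouring genes Hibadh, Tax1bp1 and Jazf1.

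None of the shared regions lay at Hoxa13 or Evx1, and of the 5 member genes only Hoxa10 and Hoxa11 held one. Over all protein-coding genes, 8.32% held a shared region. The Hoxa cluster (taken here from Hoxa2 to Hoxa13, 98.5 kb) had 3 shared regions, inside Hoxa7, Hoxa10 and Hoxa11, all with scores below the median of their list in each replicate. The strongest region of the window lay outside the cluster, beyond Evx1 and 157 kb from Hoxa13. The side of Hoxa13 on which Evx1 lies had 8 shared regions (exact Poisson 95% interval 3.45 to 15.8) and the opposite side, that of Skap2, had 5 (1.62 to 11.7), 3 of which were those in the cluster. These intervals overlap and, like all intervals here, cover counting error only.

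**Figure D1:**
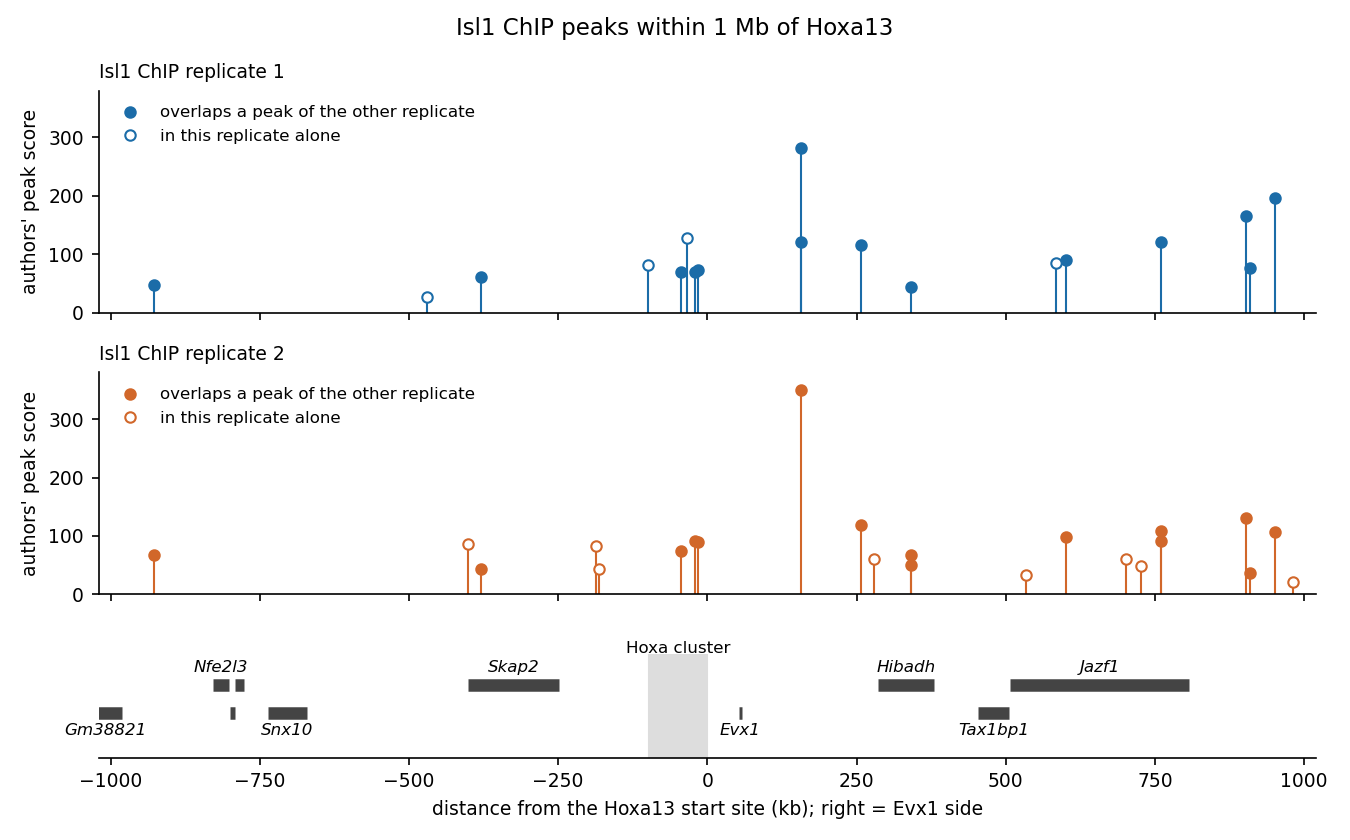
Authors' peak score (vertical axis) of each Isl1 ChIP peak against distance from the Hoxa13 start site in kb (horizontal axis), replicate 1 above and replicate 2 in the middle, with protein-coding genes as dark bars and the Hoxa cluster as a grey box at the bottom (Hnrnpa2b1 and Cbx3, beside Nfe2l3, are drawn without names). Filled points overlap a peak of the other replicate and open points do not; the tallest points of both replicates (282 and 349) stand 157 kb to the right of Hoxa13, and the stretch between Hoxa13 and Evx1 is empty.

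Sequence bears on the locus where peaks met an annotated start site. RefSeq promoter windows (GRCm38.p6, 250 bases before to 50 after the start site) were given for all 5 members, with 2 start sites for Hoxa10. Of these windows, that of the upstream Hoxa10 start site was overlapped by a peak of both replicates, which was the case for 2.74% of all 32851 windows. The overlap was slight, 6 bases of the window in replicate 1 and 25 in replicate 2, since both peaks lay wholly downstream of the start site. The Hoxa10 window is printed as the site of that overlap, with the bases inside the replicate 2 peak in capitals. The windows of Hoxa13 and Evx1 are printed beside it as the outermost members, which no peak touched; capitals there mark matches to the motifs CTAATG and CAATAAA. All are given from 5′ to 3′ on the gene's strand.
Hoxa10, chr6:52240805-52241104, minus strand: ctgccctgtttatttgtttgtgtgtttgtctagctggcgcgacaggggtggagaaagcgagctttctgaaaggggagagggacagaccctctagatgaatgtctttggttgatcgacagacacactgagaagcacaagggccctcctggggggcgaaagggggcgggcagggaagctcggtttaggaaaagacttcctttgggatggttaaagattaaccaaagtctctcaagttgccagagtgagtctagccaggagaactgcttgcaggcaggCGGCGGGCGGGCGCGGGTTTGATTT
Hoxa13, chr6:52260831-52261130, minus strand: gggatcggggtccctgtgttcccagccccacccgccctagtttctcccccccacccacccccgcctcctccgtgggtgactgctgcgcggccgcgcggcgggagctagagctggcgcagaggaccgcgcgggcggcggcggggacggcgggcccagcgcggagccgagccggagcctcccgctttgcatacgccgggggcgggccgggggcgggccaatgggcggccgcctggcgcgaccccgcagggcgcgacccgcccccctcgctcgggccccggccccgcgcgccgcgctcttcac
Evx1, chr6:52313248-52313547, plus strand: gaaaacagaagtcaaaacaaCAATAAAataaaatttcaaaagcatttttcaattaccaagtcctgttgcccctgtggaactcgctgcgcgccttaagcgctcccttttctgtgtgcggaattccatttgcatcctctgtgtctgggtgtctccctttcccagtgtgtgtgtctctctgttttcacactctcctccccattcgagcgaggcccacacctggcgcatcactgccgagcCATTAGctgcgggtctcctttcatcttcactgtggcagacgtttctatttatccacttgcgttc

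The windows were searched on both strands for 7 short motifs: TAAT, the core of homeodomain sites; CTAATG and TAATTA, of the LIM-homeodomain kind; TTTACGA and CAATAAA, of the posterior Hox kind; TGACAG, of the Meis kind; and TGATTNAT, of the Pbx-Hox kind. TAAT lies within CTAATG and TAATTA. The Hoxa13 window, 81% G or C, held none of the 7, and the Hoxa10 window, 54.3% G or C, held TAAT once, on the opposite strand 37 bases before the start site and outside both peaks. The Evx1 window, 48.7% G or C, held CTAATG on the opposite strand 14 bases before the start site and CAATAAA on the gene's strand 230 bases before it. It had 2 matches to TAAT, 1 inside that CTAATG and 1 farther upstream, also on the opposite strand. The member windows not printed, of Hoxa11, Hoxa9 and the other Hoxa10 start site, held TAAT 1, 2 and 3 times. None of them held any of the other motifs. Over all windows, 58.0% held TAAT, 7.36% CTAATG, 5.29% TAATTA, 0.597% TTTACGA, 4.6% CAATAAA, 19.2% TGACAG and 3.22% TGATTNAT. Of the 899 windows that a peak of both replicates overlapped, 46.5% held TAAT, 4.67% CTAATG, 1.89% TAATTA and 0.445% TTTACGA. In the same windows the shares were 2.22% for CAATAAA, 12.1% for TGACAG and 1.45% for TGATTNAT. Each was lower than over all windows, a difference that was not tested. A match of these letters is not evidence of a bound site, and no sequence of the peaks themselves was used beyond the bases in that Hoxa10 window.

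Within the cluster, the regions were modest in score and lay inside their genes, and so downstream of the first annotated start site of each. At Hoxa10, which is needed in the mouse for uterine development and implantation, the shared region spanned chr6:52240641-52240829, with scores of 69 in replicate 1 and 91 in replicate 2. Its midpoint was 107 bp downstream of the first start site, and no other region of the 13 was within 1 kb of an end of a protein-coding gene. The gene (chromosome 6, 52231197 to 52240854, minus strand) has a further annotated start site inside it, downstream of the region, which no peak met.

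At Hoxa11, a gene of the limb, kidney and reproductive tract (chromosome 6, 52242105 to 52245810, minus strand), the region was chr6:52244427-52244695, with scores of 73 and 90 in replicates 1 and 2. It lay 1.28 kb downstream of the Hoxa11 start site, 712 bp before the start of the antisense transcript Hoxa11os, and only 3.78 kb from the Hoxa10 region. The region also overlapped the noncoding RNA gene LOC115490410 (52243235 to 52244513). The replicate 1 peak there (52244471 to 52244592) lay wholly inside the wider replicate 2 peak, and the region was lost when at least 50% reciprocal overlap was required. At Hoxa7, which patterns the trunk, the region was chr6:52216725-52216855, with scores of 69 and 74, 1.77 kb downstream of the start site.

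Hoxa9, known for its part in blood stem and progenitor cells (chromosome 6, 52223097 to 52227370), differed between the replicates. Replicate 1 had a peak inside it at 52226259 to 52226376, 1.05 kb downstream of its start site, with a score of 128, the highest of the replicate 1 peaks in the cluster and of all peaks of the window found in 1 replicate alone. Replicate 2 had no peak in Hoxa9 and none within 9.51 kb of that replicate 1 peak, and the nearest shared region to the gene was the one in Hoxa7, 6.30 kb away.

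Hoxa13 itself (chromosome 6, 52258853 to 52260880) held no peak in either replicate, and its nearest shared region, in Hoxa11, was 14.3 kb away. Evx1, a homeobox gene of the primitive streak and of spinal interneurons (chromosome 6, 52313498 to 52318389), also held none, and its nearest region was the same one, 69.0 kb away. No peak of either list lay in the 52.6 kb between Hoxa13 and Evx1, which holds Hottip, a noncoding RNA gene known in human cells to act on the distal HOXA genes. In ascending order of distance, the members were thus Hoxa10 and Hoxa11 (0), Hoxa9, Hoxa13 and Evx1. Over all protein-coding genes the median distance to a shared region was 167 kb.

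**Figure D2:**
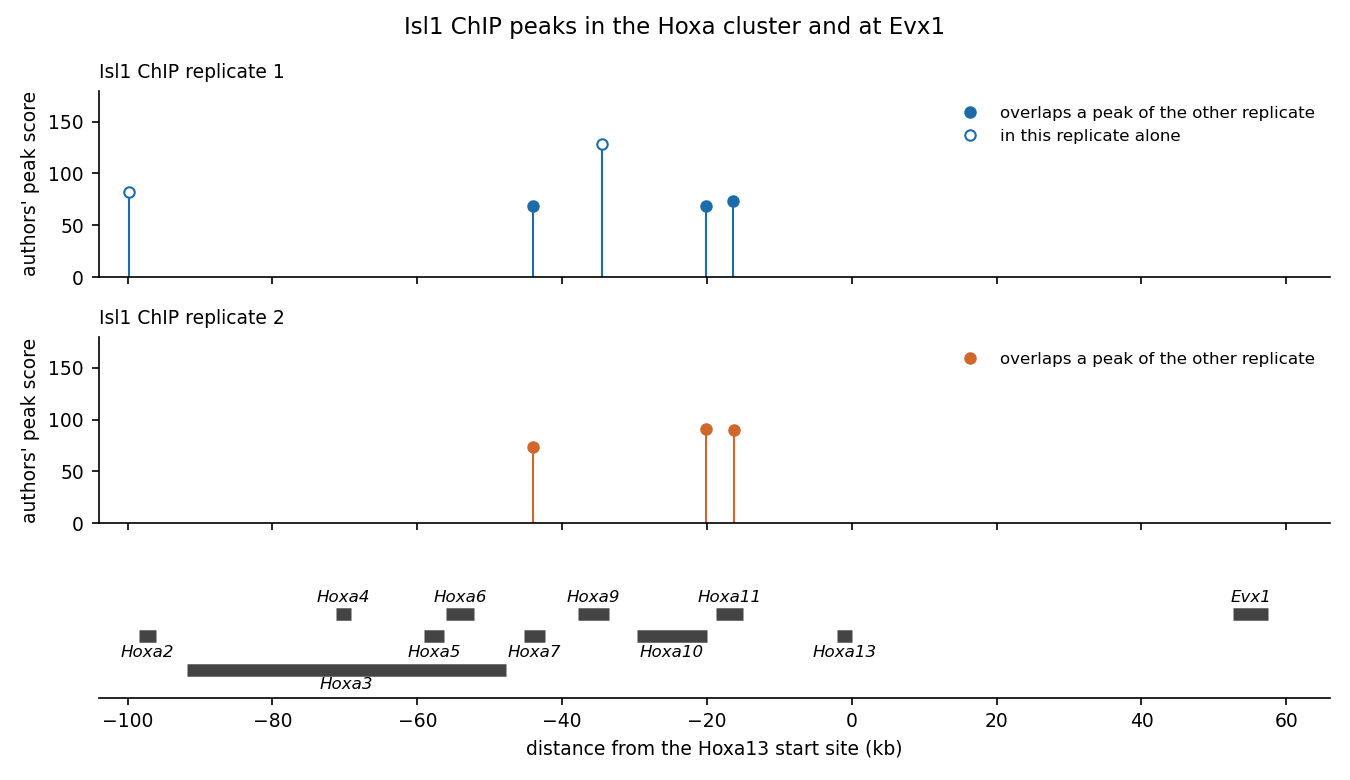
Authors' peak score (vertical axis) against distance from the Hoxa13 start site in kb (horizontal axis) for the Hoxa cluster and Evx1, replicate 1 above and replicate 2 in the middle, with genes as dark bars below. Filled points overlap a peak of the other replicate; replicate 1 has 4 peaks in the cluster, of which the open one lies in Hoxa9 (128), and 1 open peak to the left of Hoxa2 (82), and replicate 2 has 3.

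Of the other Hoxa genes analysed, none besides Hoxa7 held a peak. The anterior part of the cluster, from Hoxa2 up to Hoxa9 (60.7 kb), had 1 shared region, that of Hoxa7, and the part from Hoxa9 to Hoxa13 (37.8 kb) had 2. Hoxa2 lay 52.0 kb from the nearest shared region, although replicate 1 alone had a peak nearer to it, in the noncoding RNA gene Hotairm1 (52161055 to 52161177, score 82). Mir196b, the microRNA gene between Hoxa9 and Hoxa10, was 10.6 kb from the nearest region.

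Counted as genes, 4 of the 10 Hoxa genes analysed had a shared region inside them or within 5 kb, namely Hoxa3, Hoxa7, Hoxa10 and Hoxa11, where 12.5% of all protein-coding genes did. These genes lie so close together that they share regions: Hoxa3, whose annotated span runs over Hoxa4, Hoxa5 and Hoxa6, was counted for the region in Hoxa7, and Hoxa10 and Hoxa11 each lay within 5 kb of the other's region. Counted by midpoints inside the gene, it was 3 of 10, against 8.32% of all protein-coding genes. Counting all peaks of replicate 1, 6 of 10 had a peak inside or within 5 kb, and counting those of replicate 2, 4 did. The 12.5% holds for shared regions and is no background for these single-list counts, for which no share over all genes is given.

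All 3 cluster regions were within 2 kb of an annotated start site, which held for none of the other 10 regions of the window and for 15.9% of shared regions over the chromosomes in the promoter table. Start sites are dense here, and 49.4% of the bases of the cluster are within 2 kb of one, against 6.66% of the bases of the whole window. Start sites in that table were given for 9 of the 10 Hoxa genes. Exons and introns are not in the gene table, so the regions could not be placed in either.

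On the Evx1 flank the shared regions were spread from 157 to 952 kb from Hoxa13, with gaps between neighbours of 5.75 to 260 kb. The first and strongest, chr6:52417377-52417943, joined 2 peaks of replicate 1 (scores 121 and 282) and 1 of replicate 2 (score 349). Its position in the lists was high, with 88.6% of all replicate 1 peaks and 92.3% of all replicate 2 peaks at or below those scores. It was in no annotated gene, 99.1 kb from Evx1 and 157 kb from Hoxa13. The next, chr6:52518729-52519030 (scores 115 and 118), was also intergenic, 27.4 kb from Hibadh and 258 kb from Hoxa13.

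Inside Hibadh, an enzyme gene of valine breakdown, lay a weak region at chr6:52601761-52602135 (scores 44 and 67). Inside Jazf1, a zinc finger gene of 301 kb, were 2 regions: chr6:52861947-52862243 (scores 90 and 99) and chr6:53020382-53020725 (121 and 109). Tax1bp1, an autophagy receptor gene between them, held no peak in either list. The last 3 lay in the intergenic stretch between Jazf1 and Creb5: chr6:53164039-53164531 (scores 166 and 131), chr6:53169865-53170229 (76 and 37) and chr6:53212346-53212580 (196 and 106). Replicate 1 had the higher score in each of these 3, whereas over all 13 regions replicate 2 was higher in 8 (61.5%) and over all shared regions of the series in 58.9%. These compare the scores as given, and whether both lists use the same scale is unknown.

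The Skap2 flank outside the cluster, 904 kb long, held 2 shared regions, both weak. One was inside Skap2, an adaptor gene of Src-family kinase signalling, at chr6:51881627-51881912 (scores 61 and 43), 377 kb from Hoxa13. The other was intergenic at chr6:51333898-51334270 (scores 47 and 67), 925 kb away, with Gm38821 as its nearest protein-coding gene and the noncoding RNA gene Gm32479 nearer, at 25.2 kb. Between them, 548 kb without a shared region took in Nfe2l3, Hnrnpa2b1, Cbx3 and Snx10, none of which held a peak in either list. The 149.9 kb between Skap2 and Hoxa2 had no shared region, though replicate 1 alone had its Hotairm1 peak there and replicate 2 alone had 2 peaks (scores 83 and 44). Regions per Mb were 30.5 in the cluster, 8 on the Evx1 side and 2.21 on the Skap2 flank outside the cluster, and 2.40 over chromosome 6 between its first and last protein-coding genes; these densities were not tested against each other.

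Agreement of the replicates in the window was close to that of the whole lists. In replicate 1, 14 of the 18 peaks (77.8%, Wilson 95% interval 54.8 to 91.0%) were shared, where 78.5% of the whole list were. In replicate 2, 15 of 23 (65.2%, 44.9 to 81.2%) were shared, where 68.3% of the whole list were. Spearman's correlation between the replicates' scores was 0.82 over the 13 regions and 0.72 over all 6834 of the series; regions of the same libraries are not independent and no p is given.

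The peaks found in 1 replicate alone were 4 in replicate 1 and 8 in replicate 2. Those of replicate 1 were the peaks in Hoxa9 (128), in Jazf1 (85), in Hotairm1 (82) and in the intergenic stretch on the Skap2 flank (26). Those of replicate 2 had scores of 22 to 87, and the strongest lay in Skap2 (51859717 to 51859980). Of the 8, 3 lay in Jazf1, with scores of 33, 60 and 49. Each of the 12 was at least 9.51 kb from the nearest peak of the other list, so none was a near miss of the overlap rule.

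**Figure D3:**
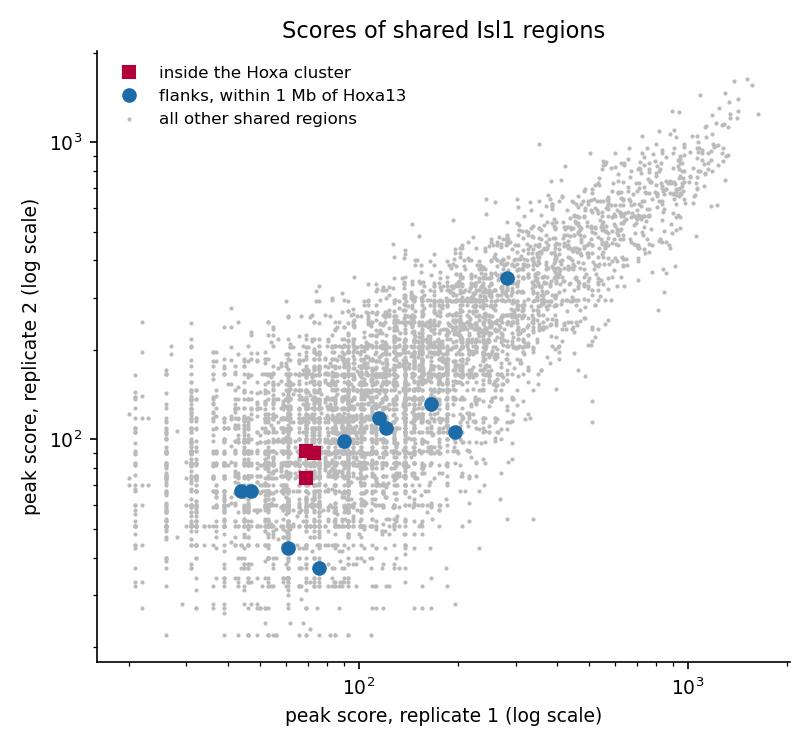
Peak score in replicate 2 (vertical axis, log scale) against that in replicate 1 (horizontal axis, log scale) for shared Isl1 regions: squares for the 3 in the Hoxa cluster, large circles for the 10 in its flanks and small grey points for all others of the series. The squares sit together at 69 to 73 in replicate 1 and 74 to 91 in replicate 2, and the highest circle is the region beyond Evx1 (282 and 349).

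The window held few of the highest scores, though the counts are small and were not tested. The median score was 83.5 for the peaks of the window in replicate 1, against 90 for the whole list, and 74 in replicate 2, against 96. At or above the upper quartile of their list were 3 of the 18 replicate 1 peaks (26.1% of the whole list) and 1 of the 23 replicate 2 peaks (26.0% of the whole list). The 3 shared regions of the cluster had scores that 32.8 to 49.3% of the peaks of their list did not exceed. When only peaks at or above their list's median score were kept, 6 shared regions remained by count, all on the Evx1 side. The 3 of the cluster, with scores below those medians, could not remain. Under the same cut 15.2% of protein-coding genes had at least as many regions within 1 Mb. The share of all shared regions of the series that remained is not given here.

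By location, 1 of the 13 regions (7.69%, Wilson 95% interval 1.37 to 33.3%) had its midpoint 1 kb or less from an end of a protein-coding gene, against 13.6% of all shared regions of the series. A further 6 (46.2%, 23.2 to 70.9%) lay deeper inside protein-coding genes, in Skap2, Hoxa7, Hoxa11, Hibadh and Jazf1, against 36.9% of all. The remaining regions lay outside protein-coding genes and over 1 kb from their ends. Of the 13, 5 (38.5%, 17.7 to 64.5%) were within 100 kb of a gene, against 23.7% of all. Farther away was 1 (7.69%, 1.37 to 33.3%), against 25.8% of all. It lay between Jazf1 and Creb5, where the pseudogene Gm8143 was 0.513 kb away. The intervals of all these shares take in the values of the series. The regions of the window had a median width of 302 bp, from 131 bp in Hoxa7 to 567 bp beyond Evx1, and those of the series 251 bp.

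The window was then set beside those of other genes. The 13 regions within 1 Mb of Hoxa13 (exact Poisson 95% interval 6.92 to 22.2) compare with a median of 5 (quartiles 2 and 7) over protein-coding genes, of which 5.43% had 13 or more. Among the 7926 genes of up to 10 kb, whose windows have nearly the same length, it was 3.49%, and on chromosome 6 it was 4.17%. Neighbouring genes share regions, so these shares describe a place in a ranking and are not a test. They moved with the rule: with at least 50% reciprocal overlap Hoxa13 had 8 regions, which 19.6% of genes reached. Counting all peaks of replicate 2 alone it had 23, which 2.28% of genes reached, and counting those of replicate 1 alone it had 18, which 3.33% reached.

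A stretch of the cluster's own length, centred on each protein-coding gene, held 3 or more shared regions for 1.29% of genes. The cluster's count was 3 in replicate 2 alone and 4 in replicate 1 alone. It was 2 with at least 50% reciprocal overlap and 0 with peaks at or above their list's median score. The share of genes under those rules is not given here. Stretches centred on neighbouring genes overlap, so the 1.29% is not a test either.

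Among the group 13 Hox genes, which are paralogues at the ends of their clusters, Hoxa13 came second by its count of regions within 1 Mb. Around Hoxa13 there were 13 shared regions, with 18 and 23 peaks in replicates 1 and 2. Around Hoxd13, which acts with Hoxa13 in tubercle and digits of the mouse, there were 23 shared regions (Poisson 95% interval 14.6 to 34.5), with 26 and 32 peaks. Hoxc13, a gene of hair and nails, had 7 (2.81 to 14.4) and Hoxb13, a gene of tail and prostate, had 3 (0.62 to 8.77). The interval of Hoxa13 overlaps those of the other 3.

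Inside the clusters, the Hoxa cluster had 3 shared regions in 98.5 kb, the Hoxc cluster had 1 in 115.7 kb, and the Hoxd cluster (96.9 kb) and the Hoxb cluster (173.9 kb) had none, although replicate 1 alone had 1 peak in the Hoxd cluster. Counts of this size were not tested against each other. The highest score (the lower of the 2 replicates) within 1 Mb was 282 at Hoxa13, 488 at Hoxd13, 761 at Hoxb13 and 204 at Hoxc13. Over the 40 Hox and Evx genes analysed, 5 had a shared region inside or within 5 kb (12.5%), against 12.5% of all protein-coding genes; 4 of the 5 were Hoxa genes and the other was Hoxc11.

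**Figure D4:**
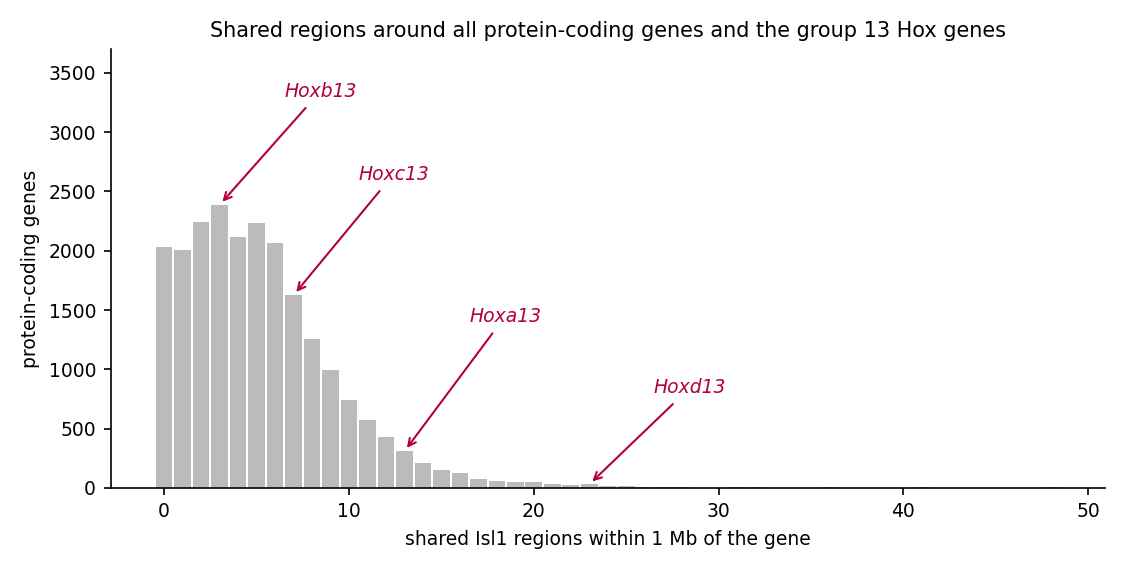
Number of protein-coding genes (vertical axis) by the number of shared Isl1 regions within 1 Mb of the gene (horizontal axis). Arrows mark the bars that hold Hoxa13 (13 regions), Hoxd13 (23), Hoxc13 (7) and Hoxb13 (3); most genes have fewer regions than Hoxa13.

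The limit of 1 Mb falls short of denser stretches on both sides. In steps of 250 kb away from Hoxa13, the shared regions on the Evx1 side numbered 1, 2, 1 and 4 up to 1 Mb, and then 5, 5, 10 and 0 up to 2 Mb. On the Skap2 side they numbered 3 (those of the cluster), 1, 0 and 1 up to 1 Mb, and then 7, 3, 1 and 0. Creb5, a gene of the CREB family that begins 1026 kb from Hoxa13 on the Evx1 side, held 7 shared regions in its 413 kb. Within 2 Mb of Hoxa13 there were 44 shared regions, a count that 0.274% of protein-coding genes reached in windows of that size, and within 500 kb there were 7, which 8.33% reached.

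**Figure D5:**
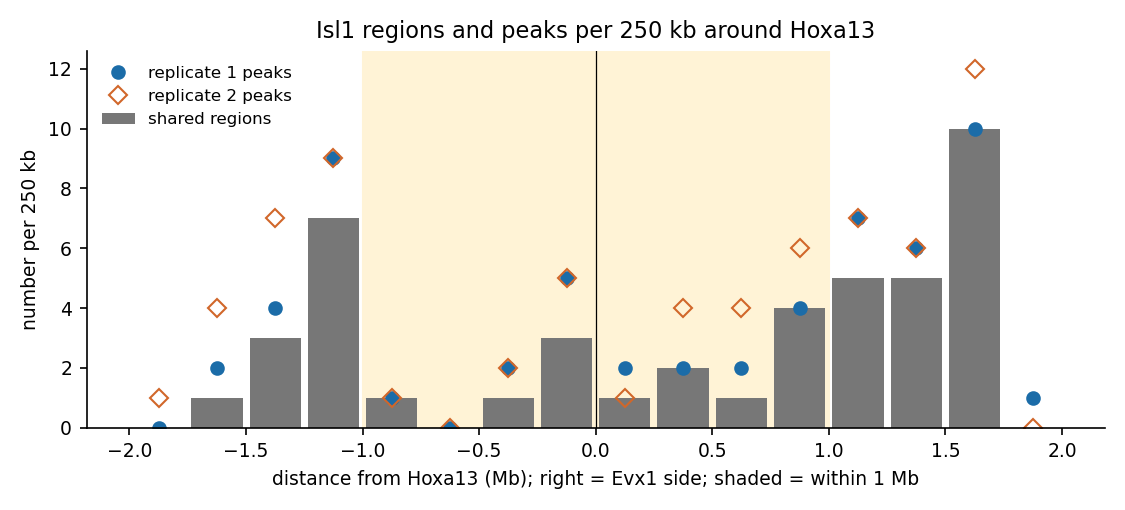
Shared Isl1 regions (grey bars) and peaks of replicate 1 (filled circles) and replicate 2 (open diamonds) per 250 kb (vertical axis) by distance from Hoxa13 in Mb (horizontal axis); the shaded part is within 1 Mb. The highest bars, 7 on the left and 10 on the right, stand outside the shaded part.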

How the data were processed

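Isl1 ChIP-seq of E14.5 genital tubercle chromatin gave 1 peak list per ChIP sample, grouped and numbered by the sample titles. The submitters' processing notes name Trimmomatic 0.35, Bowtie2 2.2.6, MACS2 2.1.0.20150731, bedtools and build mm10, without order or settings. Each peak has a position and a whole-number score, deposited by the authors. The sources used here state neither its formula nor the threshold and the use of the input. Percentiles and score limits were therefore taken within a list. Statements of which replicate scored higher, and the lower score of a region, used the scores as given. Whether the lists share a scale is unknown. Library depth is unknown, and a shallower library could miss weak peaks.

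The cluster was taken from Hoxa2 to Hoxa13, and 1 gene of the locus is not reported here. Starts were converted to 1-based positions. A shared region's midpoint is the centre of the longest stretch common to both replicates, and its score is the highest of its peaks in each replicate. Gene positions and start sites came from RefSeq GRCm38.p6, with the chromosome coordinates of mm10. The members, Hox and Evx list, motifs and comparison loci were chosen with earlier results of these data known. The text names the members, the other Hoxa genes, genes holding or nearest to a region and noncoding cluster genes; others were named after their values were seen. With 2 samples of 1 group, no test between samples was made. Intervals are Wilson or exact Poisson at 95% (scipy 1.17.1, Python 3.11.15). Overlap and window counts were tested on simulated peaks. Alternatives were other overlaps, score limits, windows and single lists.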

Additional observations from a re-analysis of the deposited data

How the results depend on the processing

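Of 101 values under alternatives, 63 stayed within the limits set (1.5 times for counts, the 95% interval for shares and the correlation, the larger of the spread between the lists and a region's width for distances) and 38 moved. With at least 50% reciprocal overlap there were 8 shared regions within 1 Mb of Hoxa13, 5 on the Evx1 side and 3 on the Skap2 side, 44.4% of replicate 1 and 34.8% of replicate 2 peaks of the window were shared, and 19.6% of protein-coding genes had as many regions. With peaks at or above their list's median score there were 6 regions, 0 in the cluster, 0 on the Skap2 side and 0% within 1 kb of a gene end; 15.2% of genes had as many, all replicate 2 peaks kept (100%) were shared, and the median distance of the members to a region was 172 kb in place of 6.30 kb. For the shares of window peaks that were shared under both of these rules, no whole-list value is given here. The 78.5% and 68.3% of the whole lists hold for all peaks and an overlap of at least 1 bp. Above the lower quartile of score, the Skap2 side had 3 regions and 10.2% of genes had as many. Within 500 kb there were 7 regions, 3 on the Evx1 side, and 8.33% of genes had as many; within 2 Mb there were 44, with 28 on the Evx1 side and 16 on the Skap2 side, and 0.274%. Leaving out one replicate gave 18 to 23 peaks within 1 Mb, 3 to 4 in the cluster, 10 to 15 on the Evx1 side, 8 on the Skap2 side, 2.28 to 3.33% of genes, median distances of 0 to 6.29 kb and 5.56 to 8.70% at gene ends. The Evx1 side had more than the Skap2 side in each setting but 500 kb, where it had 3 against 4. Matching peaks by midpoints within 500 bp gave the same 13 regions by count. No paired analysis was possible because only ChIP samples have peak lists and the numbers they share are with inputs. Depth is unknown and limits which weak peaks appear in each list.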
